A study of Homo sapiens with 2 samples.

Results

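A small set of cells in 1 culture of PC9 cells carried RNA of FABP5, MT1E, UBE2M and GTSF1, genes of which the rest of the culture held almost none. Cells were kept with 1000 or more gene UMIs (unique molecular identifiers, each counting 1 captured RNA molecule), 500 or more genes and no more than 20% mitochondrial UMIs. A kept cell belonged to the set when its UMIs of those 4 genes summed to at least 3. This gave 338 of 10142 kept cells, or 3.33% (exact 95% binomial interval 2.99 to 3.70%), and the other 9804 kept cells are the comparison. Since the 4 genes chose the cells, and since every other gene was read in the same cells and the same contrast, all gene levels below are descriptions with no test.

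PC9 is an established lung adenocarcinoma line whose EGFR carries an activating mutation, and the labels describe the whole culture as PC9, given 1 virus pool and 1 selection. Lentivirus with an sgRNA library was added by spinfection (polybrene 8 ug/ml, about 40% infected), and puromycin (1 ug/ml) was used for selection. Knockout and dCas9 both appear in the labels, as do day 7 and day 8, so the kind of perturbation and the day are uncertain. The 2 samples, 1 of sgRNAs and 1 of gene expression, were deposited as 1 joint matrix, so there are no replicates, and intervals cover counting error only.

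FABP5 is a fatty-acid-binding protein that carries lipids inside the cell. MT1E is a metallothionein, a small protein that binds zinc and copper. UBE2M is an enzyme that passes the ubiquitin-like protein NEDD8 to cullins, a step of neddylation that switches on cullin ubiquitin ligases. GTSF1 works with PIWI proteins in the piRNA pathway, which silences transposons in germ cells. MSX1 is a homeobox transcription factor of limb and craniofacial development, and AKAP12 is a scaffold that holds protein kinase A near its substrates.

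The promoters of UBE2M, GTSF1 and MSX1 are shown because all 3 genes were near 0 in the comparison cells and present in the set. Each runs from 250 bases before to 50 bases after the gene's start in RefSeq (GRCh38.p14), 5′ to 3′ on the gene's strand, with CG pairs, the places where DNA methylation occurs, in capitals. They lie at chr19:58558562-58558861 (minus strand), chr12:54473553-54473852 (minus strand) and chr4:4859415-4859714 (plus strand).
UBE2M: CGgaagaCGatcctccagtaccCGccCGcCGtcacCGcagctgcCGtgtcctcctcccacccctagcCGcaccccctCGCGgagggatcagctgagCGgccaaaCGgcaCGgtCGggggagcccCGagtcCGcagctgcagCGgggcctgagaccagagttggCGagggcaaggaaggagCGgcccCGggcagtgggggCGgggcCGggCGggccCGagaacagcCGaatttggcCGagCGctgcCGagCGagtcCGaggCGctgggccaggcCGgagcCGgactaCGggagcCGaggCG
GTSF1: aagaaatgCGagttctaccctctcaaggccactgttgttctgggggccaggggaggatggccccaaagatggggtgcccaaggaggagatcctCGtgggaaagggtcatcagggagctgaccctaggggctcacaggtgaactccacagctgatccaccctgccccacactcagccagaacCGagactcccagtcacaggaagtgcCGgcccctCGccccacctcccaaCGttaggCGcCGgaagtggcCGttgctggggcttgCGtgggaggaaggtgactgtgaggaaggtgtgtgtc
MSX1: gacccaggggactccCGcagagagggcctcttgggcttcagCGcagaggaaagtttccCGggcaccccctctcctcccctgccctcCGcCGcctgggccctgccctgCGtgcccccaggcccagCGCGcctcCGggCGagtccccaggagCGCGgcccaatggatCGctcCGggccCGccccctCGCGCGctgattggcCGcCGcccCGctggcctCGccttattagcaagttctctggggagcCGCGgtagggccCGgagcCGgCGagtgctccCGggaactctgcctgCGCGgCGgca
The UBE2M window holds 36 CG pairs, and 12.5% of 27305 promoters of the same length hold at least as many. The MSX1 window holds 31 (20.4% of promoters) and the GTSF1 window 10 (56.0%). The count is a description of the letters, and methylation was not measured.

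FABP5 (ENSG00000164687, chromosome 8, 81280536 to 81284775, GRCh38.p14) reached 541 CPM (the gene's UMIs summed over cells, per 1e+06 gene UMIs) in the 338 cells, against 0.647 CPM in the other cells. Cell by cell it ran from 0 through a median of 547 to 2469 CPM in the set, where 327 of 338 cells held at least 1 UMI, against a median of 0 and a highest value of 1031 CPM in the other cells, where 81 of 9804 cells held one. MT1E (ENSG00000169715, chromosome 16, 56625781 to 56627112) was at 261 CPM, against 0.424 CPM. Its cells ran from 0 through 192 to 3264 CPM in the set, and at most 727 CPM in a comparison cell. These cells overlap in range, but the rule holds a comparison cell to at most 2 UMIs of the 4 genes. Part of the gap between the groups is thus set by the rule. Of the 9804 comparison cells, 9633 held no UMI of any of the 4 genes.

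UBE2M (ENSG00000130725, chromosome 19, 58555712 to 58558611) gave 649 UMIs in the set and 16 UMIs in the other cells, although the other cells held 129798245 gene UMIs against 3866205 in the set. That is 168 CPM (exact Poisson interval 155 to 181), against 0.123 CPM (0.0705 to 0.2002). GTSF1 (ENSG00000170627, chromosome 12, 54455957 to 54473602) was at 177 CPM, against 0.247 CPM, and was seen in 287 of 338 cells, against 32 of 9804. All 4 genes were detected together in 192 cells of the set, 3 of them in 100, 2 in 42 and 1 in 4. Of the other cells, 159 held 1 of the 4 and 12 held 2. The rule holds these cells to at most 2 UMIs, so none could hold 3 or 4 of the genes.

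MSX1 (ENSG00000163132, chromosome 4, 4859665 to 4863936) and AKAP12 (ENSG00000131016, chromosome 6, 151239967 to 151358559) took no part in the rule. MSX1 was at 155 CPM, against 0.624 CPM, and 228 of 338 cells held it, against 76 of 9804. AKAP12 was at 1905 CPM, against 33.9 CPM. Its median cell had 1599 CPM in the set and 0 CPM among the other cells, and 332 of 338 cells held it, against 2757 of 9804. Of the 6 marker genes in the label, the 4 rule genes are high by construction, and these 2 were high beside them.

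The UMIs of the 4 rule genes left few cells near the threshold. In the set they ranged from 3 to 45 with a median of 12. Just inside, 8 kept cells had a sum of 3 and 17 had a sum of 4, and just outside, 16 had a sum of 2 and 155 a sum of 1.

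Over all genes, a gene was called when its level differed at least 4-fold with at least 20 CPM on the higher side. Of 6011 genes, 142 (2.36%) were higher and 33 (0.549%) were lower in the set, and the median log2 ratio was -0.05. Behind the small second count, the set held cells of 2 kinds. A member panel was formed from the 138 called higher genes other than the rule genes, and a culture panel from the 33 called lower genes. The culture panel made up a median of 21.6 UMIs per 10000 gene UMIs in the other cells, and a line at 20% of that, 4.32 per 10000, was set after the values were seen. Below the line lay 258 cells of the set (76.3%), called here the panel-alone cells, and above it lay 80 (23.7%, exact interval 19.2 to 28.6%), called the both-panel cells. Because the panels come from the same contrast, the split is a description. It is not sharp for 26 cells that lie within 2 per 10000 of the line.

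The panel-alone cells had a median of 0 culture-panel UMIs per 10000 and at most 4.17, and 142 of the 258 held none at all. Their member panel had a median of 225 per 10000. Both-panel cells had medians of 10.6 for the culture panel and 95.8 for the member panel, and the other cells had 21.6 and 21.03. Both-panel cells were thus intermediate on both panels. A further 8 of the other cells had a culture panel under the line and a member panel at or above 111 per 10000, the lowest value among panel-alone cells. They had 1275 to 8555 gene UMIs with a median of 2663.

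**Figure D1:**
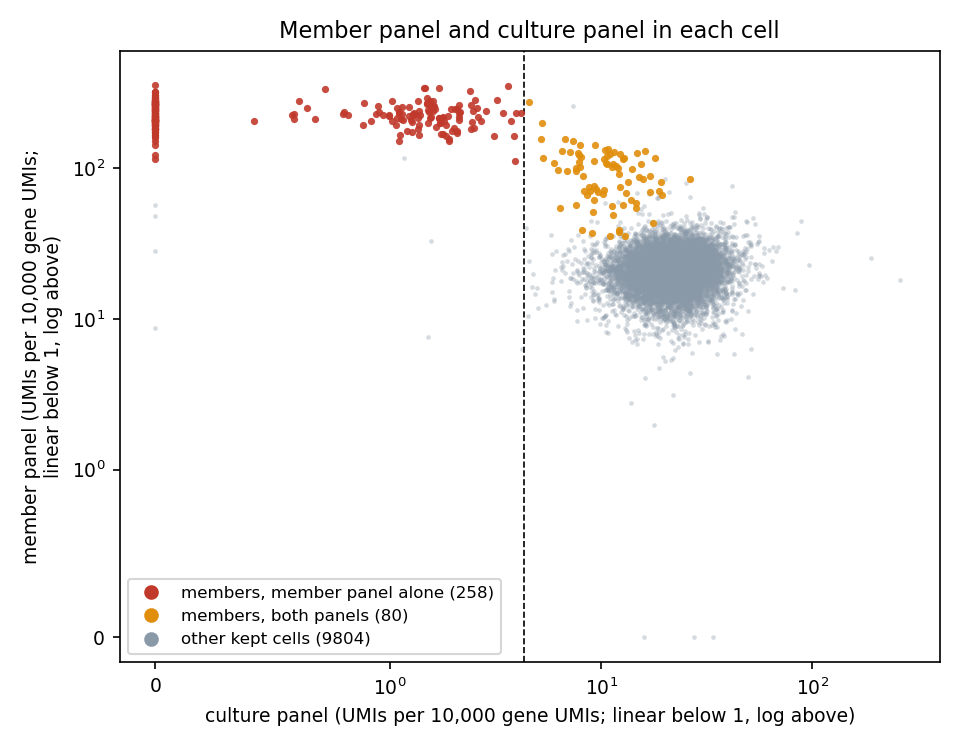
Each point is a kept cell, with UMIs of the culture panel (x) and of the member panel (y) per 10,000 gene UMIs, both linear below 1 and logarithmic above. The 258 panel-alone cells lie left of the dashed line at 4.32, the 80 both-panel cells lie between them and the mass of 9804 other cells.

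Depth differed between the kinds. Panel-alone cells had a median of 8243.5 gene UMIs, both-panel cells 19567 and the other cells 12291.5. Median genes per cell were 2658, 4333 and 3396, and median mitochondrial UMIs were 11.3%, 8.93% and 10.5%. No doublet caller was run, and whether both-panel barcodes hold more than 1 cell was not tested.

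The sgRNA UMIs were not used by the rule. At least 5 sgRNA UMIs were held by 15 of 258 panel-alone cells (5.81%, exact interval 3.29 to 9.41%), 62 of 80 both-panel cells (77.5%, 66.8 to 86.1%) and 6956 of 9804 other cells (71.0%, 70.0 to 71.8%). A single sgRNA, with at least 5 UMIs and at least 80% of a cell's sgRNA UMIs, was assigned to 13 panel-alone cells (5.04%, 2.71 to 8.46%), 34 both-panel cells (42.5%, 31.5 to 54.1%) and 5509 other cells (56.2%, 55.2 to 57.2%). Panel-alone cells thus had sgRNAs in a far smaller share than the other cells, and both-panel cells in a share closer to theirs. The gap was as large without the shallow cells: among cells with at least 5000 gene UMIs, the shares assigned were 5.33% of panel-alone cells and 56.8% of the other cells. Any sgRNA UMI at all was found in 40.3% of panel-alone cells, 97.5% of both-panel cells and 90.2% of the other cells.

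sgRNAs of more than 1 target, each target with 5 or more UMIs, were found in 0 of 258 panel-alone cells (exact interval 0 to 1.42%). They were found in 17 of 80 both-panel cells (21.25%, 12.9 to 31.8%) and in 10.3% of the other cells. The 13 assigned panel-alone cells carried 8 different sgRNAs, with 5 cells for JUN, 2 each for ATF4, CTCF and CTNNB1, and 1 each for PGAM1 and a non-targeting sgRNA. They had 5245 to 22471 gene UMIs. The 34 assigned both-panel cells carried 19 different sgRNAs, with 12 cells for CTNNB1, 9 for CTCF and 7 for JUN. The assigned cells, 47 of the 338 in the set, thus did not all carry the same sgRNA. Whether those sgRNA UMIs came from the cells themselves was not tested. MYC sgRNAs were in 0 of 47 assigned cells of the set (exact interval 0 to 7.55%), against 94 of 5509 other cells (1.71%).

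**Figure D2:**
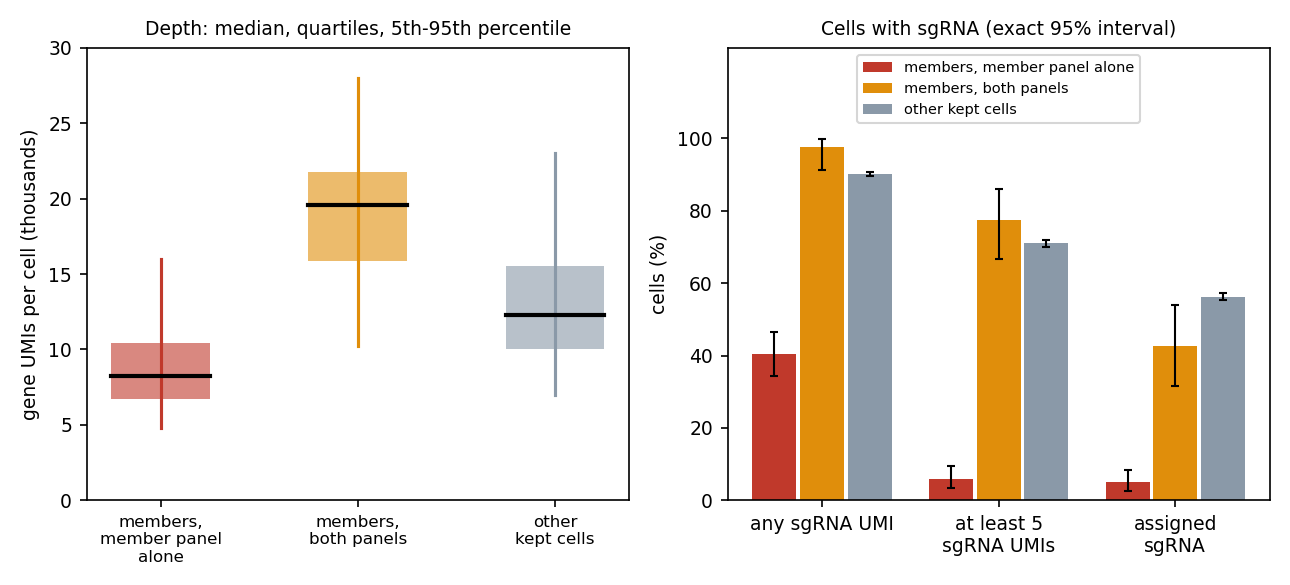
Left, gene UMIs per cell (axis in units of 1000), with the median (black line), quartiles (box) and 5th to 95th percentile (line). Right, the percent of cells with any sgRNA UMI, at least 5 sgRNA UMIs or an assigned sgRNA, with exact 95% intervals. Panel-alone cells are lowest in all 3 shares, and both-panel cells are deepest.

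The marker genes followed the split. FABP5 was at 709 CPM in panel-alone cells, 289 CPM in both-panel cells and 0.647 CPM in the other cells. UBE2M was at 220, 89.8 and 0.123 CPM, GTSF1 at 240, 83.3 and 0.247 CPM, and MT1E at 358, 118 and 0.424 CPM in the same order of groups. AKAP12, outside the rule, was at 2678, 748 and 33.9 CPM. Thinned to 5000 UMIs a cell, MSX1 was detected in 52.9% of panel-alone cells, 33.75% of both-panel cells and 0.334% of the other cells.

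The panel-alone cells give the member levels with little RNA of the culture panel, and the gene groups below are described in them. Of 6264 genes, 233 (3.72%) were called higher and 356 (5.68%) lower, with a median log2 ratio of -0.01. Of those called higher, 43 were under 1 CPM in the other cells, and of those called lower, 38 were under 1 CPM in the panel-alone cells. Across 1415 genes with at least 100 CPM in the other cells, the panel-alone level was a median of 82.4% of the other cells' level, and 24 were under 5% of it. Lowest was TXNIP, an arrestin-like protein that restrains glucose uptake, at 1.05%, but TXNIP belongs to the culture panel, whose low level defined these cells. Where a range over sgRNAs is given below, it is that of the other cells grouped by 34 sgRNAs with at least 20 cells each.

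Beside the marker genes, the largest ratios included a cancer-testis gene, 2 neuropeptides and other genes nearly silent in the rest of the culture. MAGEB2, a cancer-testis antigen, was at 113 CPM in panel-alone cells, against 0.0847 CPM in the other cells and at most 0.439 over their sgRNAs. NPW, which encodes neuropeptide W, was at 850 CPM, against 3.74 CPM, and NMU, neuromedin U, at 79.8 CPM, against 0.439 CPM. TNFRSF6B, a decoy receptor for FAS ligand, was at 66.4 CPM, against 0.693 CPM. SYT1, a calcium sensor of vesicle release, was at 86.3 CPM, against 1.33 CPM. HLA-B, a class I antigen-presenting molecule, was at 197 CPM, against 2.55 CPM, whereas HLA-C had 242 and 168 CPM and B2M had 728 and 754 CPM in panel-alone and other cells. C12orf75 was at 102 CPM, against 0.146 CPM. For HLA-B the other cells' range over sgRNAs ended at 7.52 CPM, and HLA-C and B2M were not called.

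Of the 39 HOX genes, which set position along the body axis, 8 were tested, 6 were called higher and none lower. Over all tested genes, 3.72% were called higher. The 6 called genes reached 20 CPM in the panel-alone cells only, so they could not have been called lower. HOXA9 was at 79.4 CPM, against 2.75 CPM, HOXA10 at 45.7 CPM, against 0.231 CPM, and HOXB9 at 32.4 CPM, against 0.285 CPM. HOXA7, HOXB4 and HOXB8 were also higher, while HOXB7, at 85.4 CPM against 50.9 CPM, and HOXC9, at 29.8 CPM against 12.2 CPM, were not called. The long noncoding RNA AC103702.2, which starts at position 48634804 of chromosome 17 beside the HOXB cluster, was at 64.7 CPM, against 0.0385 CPM. Related to MSX1, MSX2 had 15.5 CPM in panel-alone cells and 0.00770 CPM in the other cells.

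In the cancer-testis list, 5 of 37 genes were tested, with 3 higher and 2 lower, against 3.72% and 5.68% over all tested genes. Each of the 5 reached 20 CPM in 1 group only, so each could be called in 1 direction only. MAGEA6, MAGEA12 and PRAME were called only after the split. MAGEA3 was at 53.9 CPM, against 0.0770 CPM, while MAGEA6 was at 1.73 CPM, against 28.9 CPM, and MAGEA12 at 1.29 CPM, against 29.7 CPM. These X-linked genes are near-identical copies, so their split is uncertain. PRAME, an antigen of many tumours, was at 20.7 CPM, against 1.87 CPM.

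In the lists of relatives of the rule genes and of AKAP12, most genes went uncalled, and nothing is read from these counts. Of 17 tested neddylation genes, only UBE2M was called, and NEDD8 itself was at 403 CPM, against 572 CPM, and UBE2F, the related conjugating enzyme, at 33.7 CPM, against 59.9 CPM. In the piRNA list, GTSF1 alone passed the level needed, and 13 of 20 genes had 0 UMIs in panel-alone cells. Of 4 tested metallothionein genes MT1E alone was called, with MT2A at 1114 CPM, against 680 CPM, and MT1X at 92.3 CPM, against 124 CPM. Of 5 tested lipid-binding genes, 2 were called, FABP5 among them, while CRABP2, which carries retinoic acid, was at 158 CPM, against 228 CPM, and was not called. AKAP12 and the protein kinase A catalytic subunit PRKACB, at 74.6 CPM against 12.1 CPM, were called among 10 tested genes of that pathway. UBE2M's neighbour TRIM28, 11.6 kb away, was at 224 CPM, against 197 CPM, and CHMP2A, 4.15 kb away, at 151 CPM, against 498 CPM. Both neighbours were thus expressed in both groups.

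The EGFR pathway list had 6 of 14 tested genes higher and 2 lower, against 3.72% and 5.68% over all tested genes. EGFR itself (ENSG00000146648) was at 49.6 CPM, against 400 CPM with a range of 317 to 493 over sgRNAs. In panel-alone cells 82 of 258 held an EGFR UMI, against 9314 of 9804. EGFR was called only after the split, and over the whole set it was at 127 CPM. Its ligands AREG and EREG were higher, AREG at 1415 CPM, against 69.4 CPM, and EREG at 285 CPM, against 38.4 CPM. The ligand HBEGF was lower, at 9.92 CPM against 40.0 CPM. HBEGF too was called only after the split, with 14.2 CPM over the whole set. Feedback and early genes were also higher, with PHLDA1 at 367 CPM, against 48.6 CPM, ERRFI1 at 361 CPM, against 57.8 CPM, DUSP6 at 156 CPM, against 32.9 CPM, and IER3 at 1068 CPM, against 210 CPM.

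Genes that marked the culture were mostly lower. Of 19 tested genes of that list, 13 were lower and 1 higher, with a median log2 ratio of -3.90. The shares over all tested genes were 5.68% and 3.72%. Among the 13, 4 belong to the culture panel. All but S100P, LCN2 and AKR1C3 reached 20 CPM in the other cells only, so they could not have been called higher. The list was drawn up with earlier results of these data known. S100P, MAL, CACNG8, CAPN8 and CBR1, given next, are also panel genes. They entered the panel because they were called lower in all 338 cells of the set, with S100P at 151 CPM and MAL at 69.6 CPM. Choosing the panel-alone cells by a low culture panel lowers these levels further. S100P, a calcium-binding protein, was at 27.6 CPM, against 618 CPM, and LCN2, which binds iron-carrying siderophores, at 70.3 CPM, against 795 CPM. MAL, a membrane sorting protein, was at 8.63 CPM, against 319 CPM. The calcium channel subunit CACNG8 was at 3.88 CPM, against 105 CPM, the protease CAPN8 at 3.45 CPM, against 77.4 CPM, and the carbonyl reductase CBR1 at 2.16 CPM, against 78.4 CPM. AKR1C1, AKR1C2 and AKR1C3, near-identical aldo-keto reductases whose reads may be split between copies, were at 18.1, 17.3 and 25.9 CPM, against 501, 356 and 749 CPM. GPX2, a glutathione peroxidase, was at 10.4 CPM, against 259 CPM. LCN2, these reductases and GPX2 are not in the panel, but they were called only after the split. Over all 338 cells of the set LCN2 was at 319 CPM, AKR1C3 at 235 CPM and GPX2 at 92.3 CPM. Of 17 tested genes of the NRF2 and aldo-keto reductase list, 7 were lower and none higher in panel-alone cells. Of the 7, AKR1B10, AKR1C1, AKR1C2, GPX2 and ALDH3A1 reached 20 CPM in the other cells only and could not have been called higher. None of that list was called over the whole set.

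Of the NF-kB list, 6 of 7 tested genes were lower and none higher, against 5.68% and 3.72% over all tested genes. CXCL8, CXCL1, SAA1 and IL32 reached 20 CPM in the other cells only, so they could not have been called higher. CXCL8, a neutrophil chemokine, was at 6.90 CPM, against 99.6 CPM. None of that list was called over the whole set, where CXCL8 was at 34.7 CPM. The interferon list went both ways, 2 of 13 higher and 3 lower. Of these, ISG15, BST2 and OAS1 were called only after the split. Over the whole set ISG15 was at 656 CPM and BST2 at 109 CPM. IFITM2, an antiviral membrane protein, was at 75.5 CPM, against 0.778 CPM, and ISG15 at 811 CPM, against 193 CPM, while MX1, an antiviral GTPase and a culture-panel gene, was at 2.16 CPM, against 66.5 CPM, and BST2 at 15.1 CPM, against 336 CPM.

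**Figure D3:**
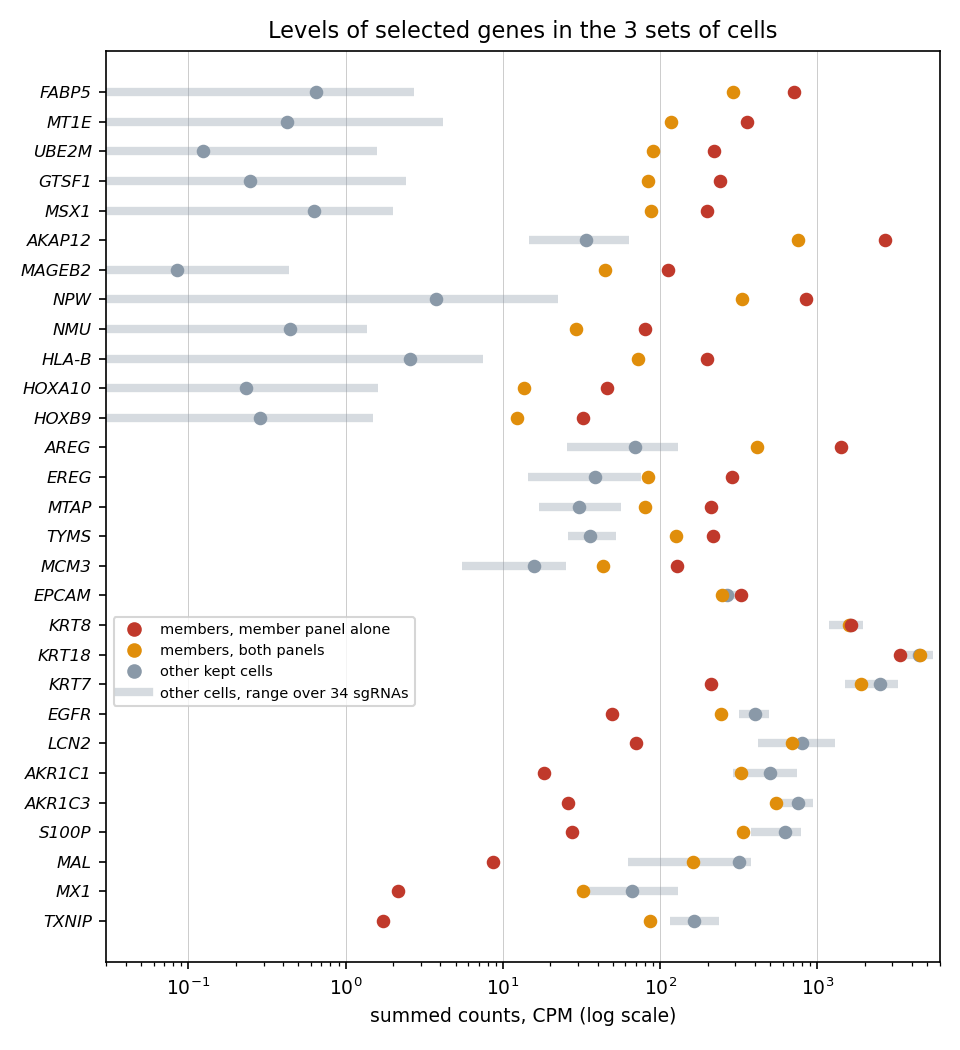
Summed counts in CPM (log scale) for selected genes, from the marker genes at the top to genes of the culture at the bottom, with grey bars for the range over 34 sgRNAs of the other cells (a bar that reaches the left edge goes down to 0 CPM). The panel-alone cells lie farthest from the other cells in most genes (FABP5 at 709 and 0.647 CPM), and both-panel cells lie between (289 CPM).

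Epithelial genes were shared in part. KRT8 was at 1631 CPM, against 1610 CPM, KRT18 at 3345 CPM, against 4454 CPM, and EPCAM at 327 CPM, against 267 CPM. The list as a whole was lower, with a median log2 ratio of -0.85 and a summed level of 7927 CPM, against 13181 CPM. Against 5.68% over all tested genes, 2 of 17 tested genes here were called lower. Among them was KRT7, a keratin of simple epithelia, at 211 CPM, against 2495 CPM with a range of 1490 to 3235 over sgRNAs. None of the epithelial list was called over the whole set, where KRT7 was at 883 CPM. Thinned to 5000 UMIs a cell, KRT7 was detected in 51.2% of 244 panel-alone cells, 97.5% of 80 both-panel cells and 99.9% of 9585 other cells. Cells shallower than that, 14 panel-alone, 0 both-panel and 219 other cells, were left out.

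Markers of other cell types differed from list to list. In the lung adenocarcinoma list, NKX2-1 was at 0.431 CPM, against 0.308 CPM, and NAPSA at 0.431 CPM, against 0.362 CPM, while the 1 tested gene, FOXA1, a transcription factor of lung and other endoderm, was lower, at 2.59 CPM, against 26.2 CPM. Summed mesenchymal markers were at 73.8 CPM, against 67.5 CPM, with 16 of 26 genes at 0 UMIs in panel-alone cells and VIM at 13.8 CPM, against 1.00 CPM, but the 1 tested gene, FN1, which encodes fibronectin, was lower, at 3.02 CPM, against 30.5 CPM. Leukocyte markers summed to 23.7 CPM, against 316 CPM, the difference resting on SRGN at 9.49 CPM, against 286 CPM. Erythroid markers summed to 53.9 CPM, against 9.74 CPM, with HBG2 and HBE1 at 18.6 and 14.2 CPM, against 0.162 and 0.146 CPM, and 10 of 17 genes at 0 UMIs. Squamous and basal markers summed to 603 CPM, against 529 CPM, with 1 higher and 2 lower of 6 tested, S100A2 at 73.8 CPM, against 11.9 CPM, and SOX15 at 3.02 CPM, against 79.3 CPM. GATA3, the 1 tested gene of the nephric list, was at 3.02 CPM, against 47.5 CPM. Of 3 tested melanocyte and neural genes 2 were lower, with MITF at 4.75 CPM, against 33.6 CPM. The part of other cell types in the results was not tested.

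Some genes of DNA replication were higher in the panel-alone cells. Of 23 tested genes of the G1/S list, 5 were higher and none lower, with a median log2 ratio of 1.42. The share called higher over all tested genes was 3.72%. Of those called, MCM3, CDC6, DTL and UHRF1 reached 20 CPM in the panel-alone cells only, so they could not have been called lower. TYMS, which makes thymidylate for DNA, was at 217 CPM, against 35.6 CPM, and MCM3, part of the replicative helicase, at 128 CPM, against 15.8 CPM. None of 35 tested G2/M genes was called, with a median of 0.75. Thinned, TYMS was detected in 54.5% of panel-alone cells, 31.25% of both-panel cells and 13.3% of the other cells, and MKI67 in 48.4%, 25% and 19.9%. CDKN1A, the p53-induced inhibitor of cell-cycle kinases, was at 70.3 CPM, against 8.01 CPM, the 1 gene called among 12 tested p53 targets.

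At 9p21, MTAP, an enzyme of methionine salvage, was at 210 CPM, against 30.6 CPM, and CDKN2A, which encodes p16 and ARF, at 184 CPM, against 670 CPM. SLC2A1, the glucose transporter, was at 136 CPM, against 19.5 CPM. None of the 13 mitochondrially encoded genes was called, MT-ND6 standing at 216 CPM, against 60.3 CPM, and MT-ND1 at 3428 CPM, against 5176 CPM. The 6 genes targeted by the sgRNAs were tested and none was called, CTNNB1 for example standing at 63.9 CPM, against 42.6 CPM.

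By chromosome, with the rule genes left out, the median log2 ratio of panel-alone over other cells was highest on chromosomes 18 (0.56), 4 (0.55) and 17 (0.50) and lowest on chromosomes 20 (-0.44), X (-0.44) and 11 (-0.37). In 585 windows of 20 neighbouring tested genes it ran from -1.71 to 1.68, with 5th and 95th percentiles of -0.85 and 0.82. The highest window lay on chromosome 17 from 64145970 to 74776345, where 20 of 20 genes were above 0, and the next on chromosome 14 from 77708071 to 94102709 (1.63). The lowest lay on chromosome 19 from 54415464 to 55580848 (-1.71), with 8 of its 20 genes called lower, and on chromosome 1 from 112391087 to 116667755 (-1.35). DNA copy number was not measured.

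**Figure D4:**
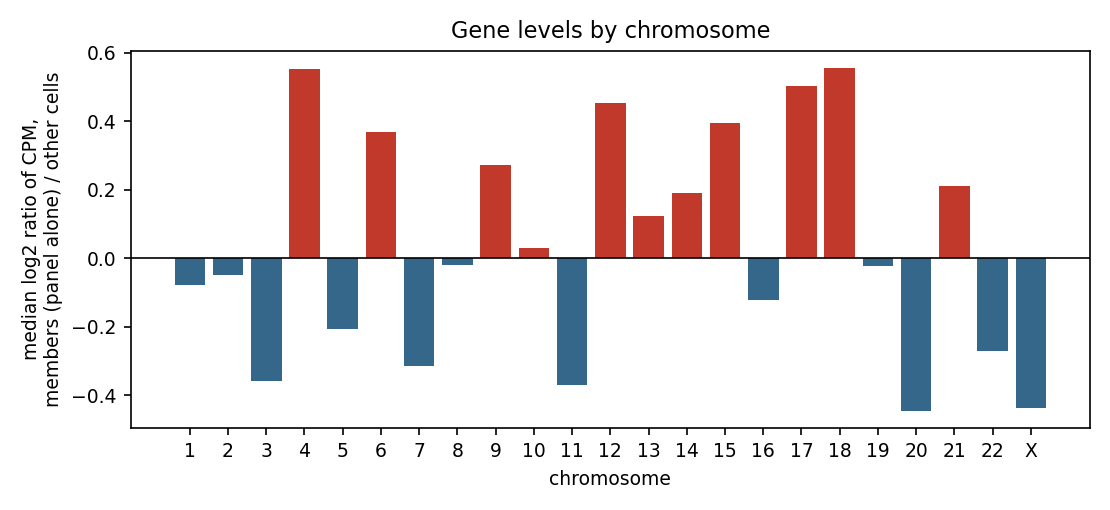
Median log2 ratio of CPM, panel-alone over other cells, of the tested genes on each chromosome (bars from 0). Chromosomes 18, 4 and 17 are highest and 20 and X lowest.

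Whether these cells are PC9, a subclone of it or another line was not tested. The counts carry no sequence variants, and all cells come from 1 culture.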

How the data were processed

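The deposited values are raw counts: UMI counts per feature and cell barcode, written by Cell Ranger 6.1.2, per the file headers, with hg38 as the build, per the submitters' processing notes. Filters applied before deposit were not stated. The matrix held 10847 barcodes, all different, 36601 genes and 36 sgRNAs, with 136071789 gene UMIs. The cell filter removed 705 barcodes. Counts were summed over cells of a group and scaled to CPM; with 1 culture no test across samples was possible. Alternatives included TMM scaling with edgeR 4.0.16 and thinning to 5000 UMIs. The members and gene lists were chosen with earlier results of these data known. Named genes are the 4 rule genes, MSX1 and AKAP12, the 15 largest folds in each direction among called genes with at least 50 CPM in the higher group and at most 10% of its UMIs in 1 cell, and called list members; the text gives a part of those; the rule was extended to the panel-alone cells after seeing the data. Only 7 lower genes met it in all members. Other genes, chosen after their values were seen, are given as uncalled list members. Gene positions were matched for 6201 of 6264 tested genes. Calls were tested on simulated data. No doublet caller was run. Some called list members are not reported here.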

Additional observations from a re-analysis of the deposited data

How the results depend on the processing

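The number of members, 338, was 217 with at least 10 summed UMIs and 111 with at most 10% mitochondrial UMIs. Genes called lower, 33, became 18, 60 and 155 with at least 2, 5 and 10 summed UMIs, 11 with at most 10% mitochondrial UMIs, 57 with FABP5 left out of the rule, 187 with the mean of each cell's CPM, 161 with a minimum of 5 CPM, 234 with none, 588 and 0 at folds of 2 and 10, 356 without the both-panel cells and 6 among cells with an assigned sgRNA. Genes called higher, 142, became 378 and 923 with a minimum of 5 CPM and with none, 548 and 60 at folds of 2 and 10, 233 without the both-panel cells and 75 among assigned cells. The share of members with an assigned sgRNA, 13.9%, was 24.3% with at least 3 UMIs and 60%, 7.396% with at least 10 UMIs and 90%, and 5.04% without the both-panel cells. The cause was not tested, except that the both-panel cells carry culture RNA by their definition. Alternatives on the panel line, on 5000 gene UMIs and on the share without both-panel cells were chosen after seeing the data. Of 462 pairs of 22 named genes and 21 settings, 0 turned direction. That count was largely fixed in advance. The settings on fold and minimum CPM cannot change a ratio, and most of these genes were chosen for large ratios in this contrast. No paired analysis was possible because there is 1 culture with no replicates.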
